A study of Mus musculus with 121 samples.

Results

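The genes described here are 39 enzymes and carriers of amino acid catabolism and the urea cycle, chosen by symbol from textbook pathways and found in the table of liver read counts, which holds 25759 genes. All 39 had a row, and 37 passed the filter on low counts and were tested. Hpd, the hydroxyphenylpyruvate dioxygenase of tyrosine breakdown, and Tdh, a threonine dehydrogenase, were listed at 0 in all 75 liver libraries. Abundant liver genes such as Trf, the transferrin gene, were listed at 0 as well, so a 0 here does not show that a gene was silent. The mice were C57BL/6 animals of a line called PEP, wild type (WT), heterozygous (HET) or knock out (KO), and all were given their diet for 18 weeks from 8 weeks of age. Standard chow, with 10% of calories from lipid, was fed to WT (n = 5), HET (n = 8) and KO (n = 5) mice. HFD 45%, written HFD below, was fed to WT (n = 8), HET (n = 11) and KO (n = 9) mice. A diet labelled Control was fed to WT (n = 5), HET (n = 4) and KO (n = 1) mice, and a diet labelled Alios to WT (n = 6), HET (n = 5) and KO (n = 8) mice. The labels give neither the sex of the mice nor how the allele was made.

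The liver is where most dietary amino acids in excess of need are broken down. Aminotransferases and deaminases move the amino group to glutamate, aspartate or ammonia, the urea cycle turns that nitrogen into urea, and the carbon skeletons enter glucose synthesis, ketone synthesis or oxidation. Methionine is used through S-adenosylmethionine and passes its sulfur to cysteine, tryptophan is opened to kynurenine and can end in NAD, and the branched-chain amino acids are handled largely outside the liver in their first step. Many of these enzymes are known to respond to protein intake, glucagon and glucocorticoids.

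Library totals in liver ran from 42692 counts, in KO replicate 8 on Alios, to 8854246, with a median of 3191160, and the next lowest held 1027087. Levels are given as CPM, counts scaled to the size of each library. Pepd, which encodes prolidase, a peptidase that frees proline from dipeptides, followed the genotype labels: on chow its mean was 43.0 CPM in WT, 21.6 in HET and 1.65 in KO, and across all KO livers it ranged from 0 to 3.16 CPM. HET replicate 8 on HFD went against its label, with 1.22 CPM of Pepd against at least 15.1 in the other HET livers on HFD. Acute phase protein transcripts summed to over 60000 CPM in KO replicates 2, 3 and 5 on chow (132900, 98180 and 111100 CPM) and KO replicate 2 on HFD (108100 CPM), whereas all other livers were at or below 51130 CPM. Skeletal muscle transcripts summed to over 200 CPM in 5 chow livers (WT replicate 3, HET replicates 1, 3 and 8 and KO replicate 5), in HET replicate 5 on HFD and in KO replicate 2 on Alios, with 2338 CPM at most. Markers listed for cholangiocytes, the bile duct cells, summed to over 150 CPM in 7 livers: WT replicates 5 and 7 and HET replicates 4 and 9 on HFD, and WT replicates 1 and 3 and HET replicate 4 on Alios. Nearly all of that sum was Spp1, the osteopontin gene, at 162 to 340 CPM, while the bile duct keratin Krt19 was at most 1.84 CPM and Epcam at most 2.39 CPM in them. These livers held the lowest or the 2 lowest mean z-scores of the 37 genes in their groups. Counts that change without the livers of these 3 kinds are given below with and without them. Such counts, like those of the other alternative fits, are given without the share of all genes called in the same fit.

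Levels per kilobase used the merged annotated exons of all transcripts of each gene. By this measure Mat1a, which makes S-adenosylmethionine, had the highest mean level of the 37 genes, 1121 CPM per kb over all livers. It was followed by Gnmt at 886, Cps1, the entry enzyme of the urea cycle, at 685, Arg1, the arginase that releases urea, at 666 and Tat, the tyrosine aminotransferase, at 642 CPM per kb. The serine dehydratase relative Sdsl was the lowest at 5.79 CPM per kb, Acmsd stood at 10.4 and Nags, which makes the activator of Cps1, at 19.6. Gonadal fat from the same study, normalized on its own, had lower CPM than liver for 34 of the 37 genes, and 25 were more than 10-fold higher in liver. Cps1 was 97.1-fold and Tat 77.1-fold higher, and 178-fold and 174-fold higher without the 1 fat library (HFD WT replicate 6) that held the highest level of both. These folds compare means, and the fat means without that library, 21.4 CPM for Cps1 and 8.86 for Tat, were still above the fat medians of 1.93 and 1.62 CPM. Bcat2, the branched-chain aminotransferase, Ivd, which acts on leucine carbon, and Sdsl were higher in fat, with liver-to-fat ratios of 0.782, 0.973 and 0.6245. Exons of Bckdha shared 61.7% of their length with B3gnt8 and those of Sds 21.3% with Plbd2, counting either strand, so their values are less certain if reads were counted without regard to strand.

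**Figure D1:**
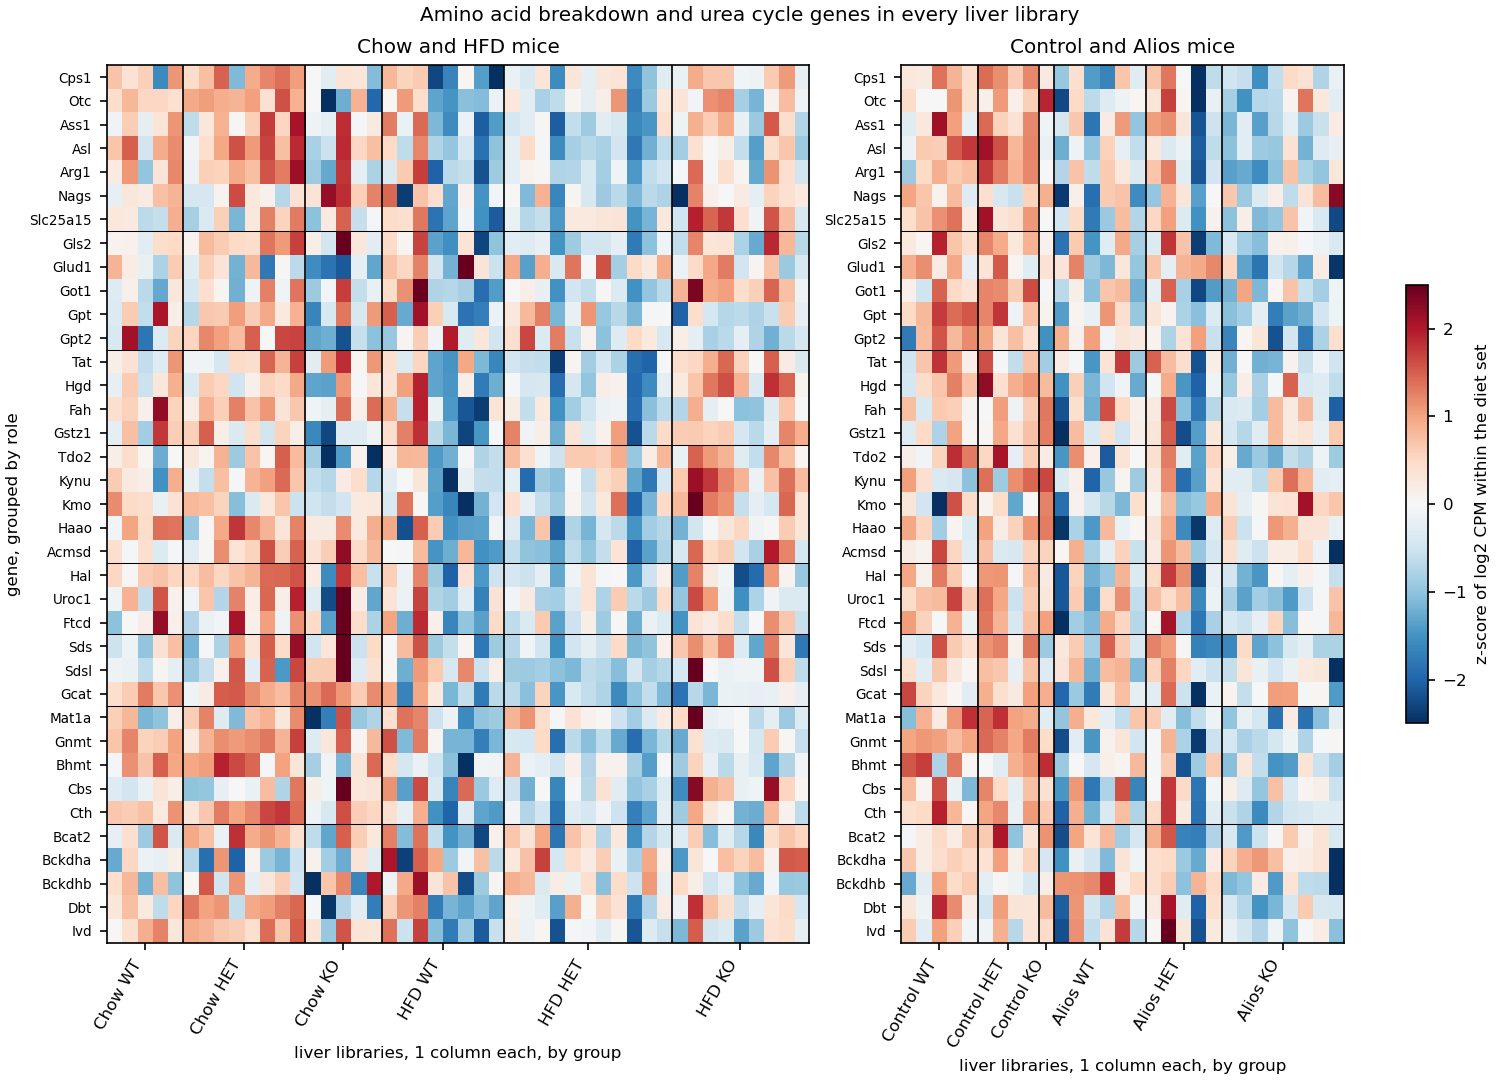
Heat map of the 37 tested genes (rows, in role groups separated by lines) across liver libraries (columns, in diet and genotype groups), with colour showing the z-score of log2 CPM within each pair of diets, limited to 2.5 SD on both sides. Most HET livers on HFD carried lower values than WT and HET livers on chow, and most livers on Alios carried lower values than those on Control. KO livers on chow were spread from low to high, and single livers within a group differed across most rows together.

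The first question was how the high-fat diet changed these genes in each genotype. In HET mice 19 of the 37 genes fell on HFD and none rose, while 7.26% of all 11064 genes tested fell and 6.97% rose (14.2% in either direction). In 35 of the 37 genes the estimate was negative, and the median log2 fold change was -0.37 against -0.01 over all genes tested. In WT mice none of the 37 was called by edgeR and DESeq2 called 1, while 1.87% of all genes were called in either direction by edgeR (1.21% higher, 0.66% lower). An unadjusted p under 0.05 was reached by 8 of the 37 and by 1698 of all 11064 genes. The WT median was -0.20 with 28 of 37 estimates negative. In KO mice 1 gene fell and 2 rose, where 6.19% and 4.51% of all genes did (10.7% in either direction), and the median was -0.10 against -0.02 over all genes. The difference between the HET and WT diet effects, added after the data were seen, was called for none of the 37 by edgeR (0% of all genes) or DESeq2. In that test 3 of the 37 and 240 of all 11064 genes had an unadjusted p under 0.05. The diet effect was therefore not shown to differ between HET and WT mice.

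**Figure D2:**
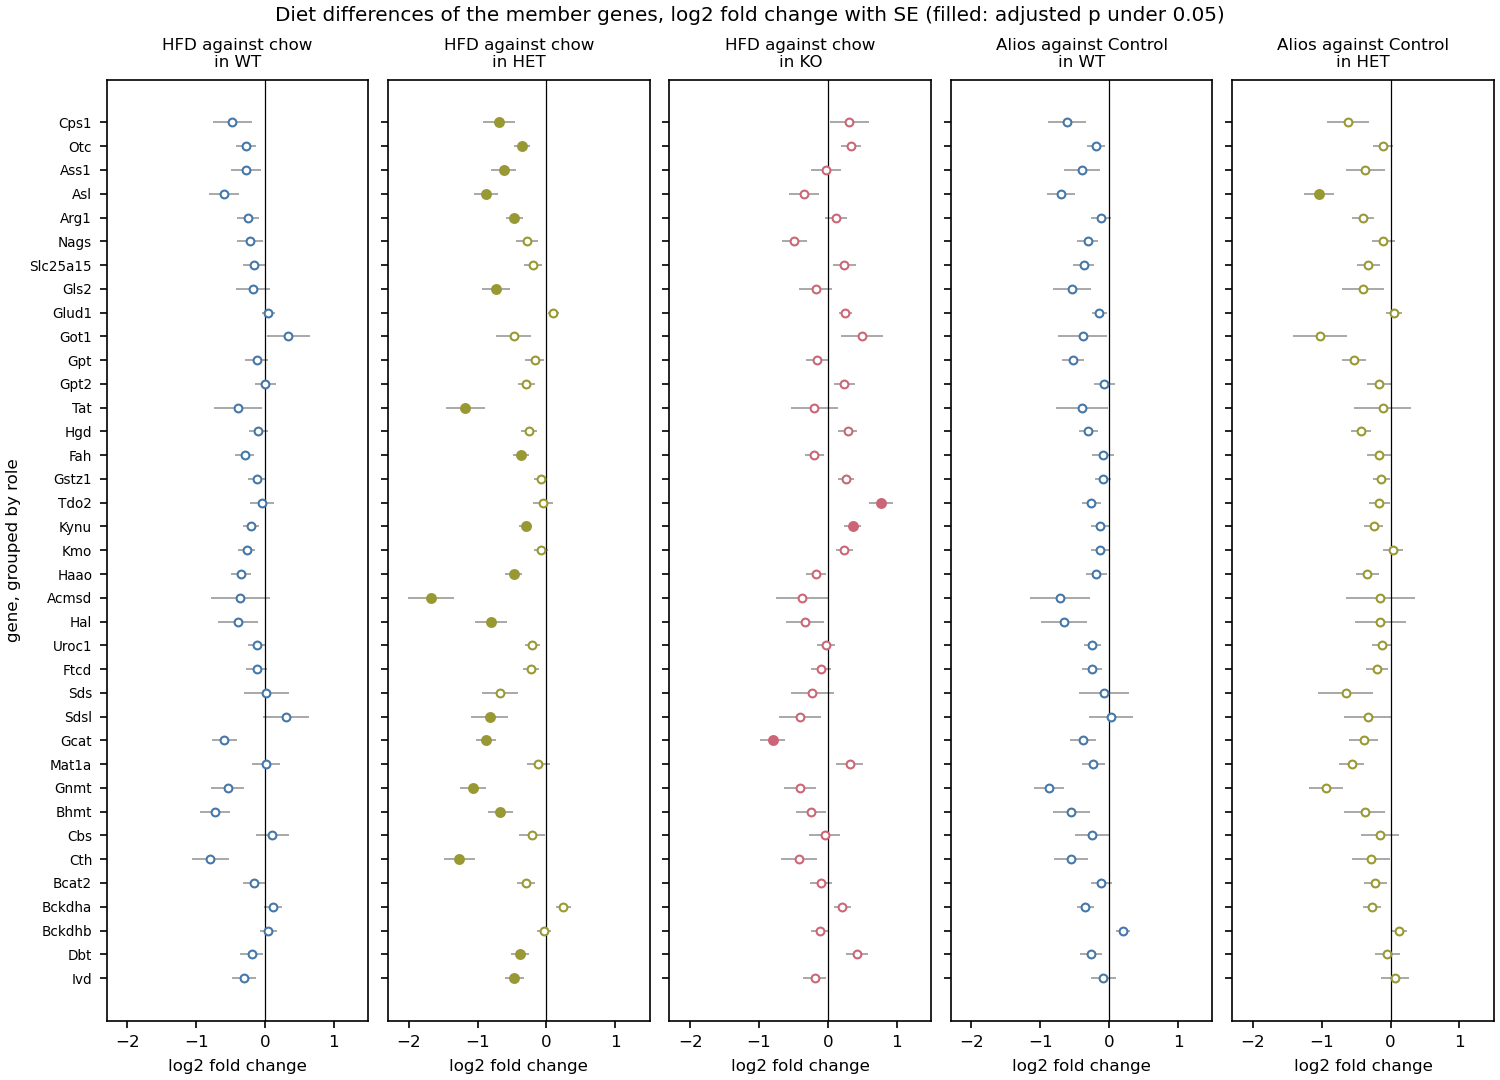
Log2 fold change of each gene (points, with standard error bars) for HFD against chow in WT, HET and KO livers and for Alios against Control in WT and HET livers, where filled points passed an adjusted p of 0.05. In HET livers 35 of 37 points lie left of 0 and 19 are filled, whereas in WT livers no point is filled in either diet comparison.

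By role, the HET decrease on HFD covered 5 of 7 urea cycle genes (median log2 fold change -0.46), 3 of 5 methionine and cysteine genes (-0.67), 3 of 5 tryptophan genes (-0.30), 2 of 3 serine, threonine and glycine genes (-0.82), 2 of 4 tyrosine genes (-0.31), 2 of 5 branched-chain genes (-0.29), 1 of 3 histidine genes (-0.22) and 1 of 5 genes of glutamine use and transamination (-0.29). Without the livers high in muscle transcripts 2 of 7 urea cycle and 0 of 5 branched-chain genes were still called by edgeR, and the urea cycle median was -0.47. In a bulk liver sample, fewer cells of a type and less RNA per cell cannot be told apart.

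Among genes of serine, threonine and glycine use, Gcat, which releases glycine from the threonine product aminoketobutyrate (chr15:79030874-79038353, plus strand, GRCm38), stood at 57.4 CPM in the lowest, 87.1 in the median and 104 in the highest HET liver on chow, and at 33.5, 45.5 and 72.8 CPM on HFD. The 2 groups overlapped in a single HFD liver, with the other 10 below every chow liver. The fall was 1.84-fold (log2 fold change -0.88, SE 0.15, edgeR adjusted p = 9.4e-05). Gcat was the only one of the 37 that also fell in KO mice, where chow livers held 90.5, 99.5, 88.5, 75.3 and 91.6 CPM and all 9 HFD livers lay lower, between 30.5 and 62.5 CPM (log2 fold change -0.80, SE 0.18, adjusted p = 0.004). In WT the values were 69.5 to 95.3 CPM on chow and 31.4 to 84.4 CPM on HFD, a log2 fold change of -0.59 (SE 0.19) that missed the threshold in edgeR (adjusted p = 0.084).

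In methionine and cysteine metabolism, Cth, the lyase that releases cysteine from cystathionine (chr3:157894248-157925077, minus strand), had a median of 785 and a highest value of 1010 CPM in HET livers on chow, with a mean of 775 ± 173 (SD, n = 8), and ranged from 182 to 420 around 345.7 CPM on HFD. All 11 HFD livers were below all 8 chow livers, a 2.40-fold fall (SE of the log2 fold change 0.22, edgeR adjusted p = 0.00012). Gnmt, which spends S-adenosylmethionine on glycine (chr17:46725664-46729168, minus strand), ranged from 1166 to 2090 CPM around 1650 on chow and from 498 to 1291 around 798 on HFD, with 10 of 11 below the chow range (log2 fold change -1.07, SE 0.19, adjusted p = 0.00018). Bhmt, which returns homocysteine to methionine with betaine, had 621 to 1263 CPM around 913 on chow and 385 to 855 around 598 on HFD, with 7 of 11 livers below the chow range (log2 fold change -0.67, SE 0.18, adjusted p = 0.0086). The other 2 genes of the group, Mat1a and Cbs, did not pass the test in HET.

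In the urea cycle, Asl, which splits argininosuccinate into arginine and fumarate (chr5:130011258-130029247, minus strand), ranged from 494 to 976 CPM around 727 in HET livers on chow and from 272 to 599 around 399 on HFD. In 9 of 11 HFD livers it was below the whole chow range, a 1.84-fold fall (log2 fold change -0.88, SE 0.18, edgeR adjusted p = 0.00067). Cps1, Otc, Ass1 and Arg1 fell too, with group means of 5187 ± 1393 (SD, n = 8) and 3217 ± 865 CPM (SD, n = 11) for Cps1, whose groups overlapped in all but 2 HFD livers. Nags and the ornithine carrier gene Slc25a15 did not pass the test.

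In tyrosine and tryptophan breakdown, Acmsd, the decarboxylase that draws a tryptophan intermediate away from NAD synthesis (chr1:127729413-127767978, plus strand), had 20.9, 36.9 and 72.3 CPM in the lowest, median and highest HET liver on chow and 6.18, 12.7 and 31.1 CPM on HFD. This 3.20-fold fall was the largest of the 19 (log2 fold change -1.68, SE 0.34, edgeR adjusted p = 7e-04), and 10 of 11 HFD livers were below the chow range. Tat, the first enzyme of tyrosine breakdown (chr8:109990437-109999803, plus strand), ranged from 968 to 3226 CPM around 1590 on chow and from 323.7 to 1271 around 863 on HFD (log2 fold change -1.18, SE 0.29, adjusted p = 0.004), with 9 of 11 livers below the chow range. Haao, the dioxygenase of hydroxyanthranilate, had 524.5 to 957 CPM around 788 on chow and 406 to 753 around 547 on HFD. Only 4 of 11 of its HFD values were below the chow range (log2 fold change -0.48, SE 0.12, adjusted p = 0.0065).

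The 11 other genes that fell in HET livers on HFD did so by 1.23-fold (Kynu) to 1.77-fold (Sdsl). Gls2, the liver glutaminase, Hal, which opens histidine breakdown, and Ivd had all 11 HFD livers below every chow liver. Sdsl had no HFD liver below the chow range and rested on few reads, with means of 9.68 CPM on chow and 5.42 on HFD. In WT livers the 8 genes described above had log2 fold changes from -0.35 to -0.80, and the lowest adjusted p among them was 0.062, for Bhmt. WT livers on HFD were widely spread: Cps1 was 1118 to 2039 CPM in 4 of them and 3691 to 5102 CPM in the other 4. Without WT replicate 3 on HFD the WT count rose from 0 to 4, and the share of all genes called in that fit is not given here.

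Other cell markers moved with the HET result: 8 of 12 stellate cell and fibroblast markers rose on HFD and 1 fell (summed level 399 to 649 CPM on chow, 543 to 938 on HFD), 4 of 10 endothelial markers rose, 3 of 8 skeletal muscle markers fell, and 2 of 11 hepatocyte markers fell. The part of stellate and endothelial markers in the result was not tested. Without the livers high in muscle transcripts 11 of the 19 genes were still called, without those high in Spp1 10 were (the 8 described above, Arg1 and Gls2), and without HET replicate 8 on HFD 19 were. The mice on chow and HFD carried numbers under 500 or over 500. Within the lower run 6 genes were called and within the upper run none, while the log2 fold changes of the lower and upper run were -0.90 and -0.88 for Gcat, -1.20 and -1.37 for Cth, -1.16 and -0.93 for Gnmt, -1.57 and -1.82 for Acmsd and -1.39 and -0.81 for Tat.

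Promoter windows are shown for 4 of the genes described above that had a RefSeq match, to set their upstream letters side by side. Each is the 100 bases before the RefSeq start on GRCm38.p6, read along the gene's strand, and capitals mark a match to one of the motifs searched. The windows are chr1:127729313-127729412 (plus) for Acmsd, chr8:109990336-109990435 (plus) for Tat, chr17:46729166-46729265 (minus) for Gnmt and chr15:79030774-79030873 (plus) for Gcat.
Acmsd: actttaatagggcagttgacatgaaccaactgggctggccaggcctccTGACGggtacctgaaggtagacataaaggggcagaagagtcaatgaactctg
Tat: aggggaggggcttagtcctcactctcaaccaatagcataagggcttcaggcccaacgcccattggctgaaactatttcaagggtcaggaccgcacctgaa
Gnmt: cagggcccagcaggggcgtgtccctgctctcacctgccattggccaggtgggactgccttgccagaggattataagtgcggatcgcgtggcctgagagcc
Gcat: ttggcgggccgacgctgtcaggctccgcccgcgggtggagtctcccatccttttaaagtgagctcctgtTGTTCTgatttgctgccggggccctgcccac

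RefSeq windows were matched for 27 of the 39 genes, 11 of them among the 19 that fell. In the 250 bases before the start, on both strands, TGACG, the core of the cyclic AMP response element, was present in 17.9% of all promoters and in 3 of the 27 (Acmsd, Ftcd and Gstz1). TGTTCT, the repeat unit of the glucocorticoid response element, was present in 16.2% of all and in 3 of the 27 (Bckdhb, Gcat and Haao). TATAAA was present in 13.0% of all and in 4 of the 27, and TTGCNNAA, a C/EBP type element, in 9.55% and 2. CAAAGTCCA, an HNF4 type element, was present in 0.381% of all promoters and in none of these. The matches are letters in these windows only, and none of the shares over so few genes was tested.

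In KO livers the diet response also included 2 genes of tryptophan breakdown that rose. Tdo2, whose product opens the tryptophan ring (chr3:81957090-81976202, minus strand), was 1252, 642, 1083, 1635 and 758 CPM in the chow KO livers and 1341, 1939 and 2358 CPM in the lowest, median and highest of 9 HFD KO livers, of which 5 lay above the chow range (log2 fold change 0.77, SE 0.18, edgeR adjusted p = 0.0046). Kynu, the kynureninase (chr2:43555329-43682715, plus strand), was 245, 240, 285, 299 and 240 CPM on chow and 267, 322.6 and 410 CPM on HFD, with 8 of 9 above the chow range (log2 fold change 0.36, SE 0.12, adjusted p = 0.047). These tests share the chow KO livers, in which 14 of 17 macrophage markers and 12 of 22 acute phase genes were higher than on HFD. Without the livers high in acute phase transcripts, which leaves 2 chow KO livers, none of the 3 genes was called by edgeR: the log2 fold change was -0.68 for Gcat (adjusted p = 0.44), 0.27 for Kynu (0.74) and at an adjusted p of 0.80 for Tdo2. Kynu was called in 3 of 14 fits that left out 1 liver, and not without the livers high in muscle transcripts, where Gcat and Tdo2 were. Among mice numbered under 500 none was called, and without KO replicate 4 on chow 5 genes were.

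The next question was the effect of losing Pepd on each diet. On chow none of the 37 genes differed between KO and WT by edgeR, where 3.4% of all genes did (2.47% higher, 0.931% lower). At an unadjusted p under 0.05 there were 7 of the 37 and 2231 of all 11064 genes, and DESeq2 called none of the 37. Against HET livers, 4 of the 37 were lower in KO, where 5.61% of all genes were lower, and none was higher, where 7.91% were (13.5% in either direction). The median log2 fold change was -0.15 against 0.01 over all genes tested. These were Gpt2, the mitochondrial alanine aminotransferase, Tdo2, Otc, the ornithine transcarbamylase of the urea cycle, and Dbt, the core subunit of branched-chain keto acid dehydrogenase.

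Gpt2 (chr8:85492576-85527560) was 449, 458, 366, 531 and 478 CPM in KO livers on chow and 608 to 902 CPM in HET livers. All 5 KO values were below all 8 HET values, a 1.71-fold difference (log2 fold change -0.78, SE 0.16, edgeR adjusted p = 0.0011). Tdo2, with the KO values above, was 1238 to 2377 CPM around 1819 in HET (log2 fold change -0.75, SE 0.18, adjusted p = 0.0055), and Otc (chrX:10252305-10321024) was 599, 305, 461, 720 and 394 CPM in KO and 650 to 842 CPM in HET (log2 fold change -0.57, SE 0.15, adjusted p = 0.01). Dbt (chr3:116513070-116549981, plus strand) was 93.0, 52.4, 78.9, 88.1 and 62.1 CPM in KO and 81.5 to 132 CPM in HET (log2 fold change -0.66, SE 0.17, adjusted p = 0.008). Against WT livers the same genes had log2 fold changes of -0.49 (Gpt2), -0.53 (Tdo2) and -0.44 (Otc), with adjusted p from 0.095 to 0.12, and Dbt had an adjusted p of 0.2.

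The KO livers on chow with acute phase sums over 60000 CPM, replicates 2, 3 and 5, held the 3 lowest values of Tdo2, Otc and Dbt in their group, but not of Gpt2. Macrophage marker sums were 612 to 2752 CPM in the chow KO livers and 246 to 958 CPM in the chow HET livers, with 16 of 17 macrophage markers and 18 of 22 acute phase genes called higher in KO. Hepatocyte marker sums were 57990 to 132600 CPM in these KO livers, with a median of 92420. Without KO replicates 2, 3 and 5 on chow and KO replicate 2 on HFD, which leaves 2 KO livers on chow, none of the 4 genes was called. The log2 fold changes were then -0.67 for Gpt2 (adjusted p = 0.46), -0.32 for Tdo2 (0.76), -0.39 for Dbt (0.67) and -0.16 for Otc (0.88). With so few livers a lost call alone does not show that a difference depended on the livers left out. The count was 2 without KO replicate 2, 6 without KO replicate 3 and 1 without the livers high in muscle transcripts. Within the lower and upper run of mouse numbers the log2 fold changes were -0.74 and -0.87 for Gpt2, -0.30 and -1.61 for Tdo2 and -0.28 and -1.17 for Otc, and none was called in the lower run. The 2 KO livers of the upper run were replicates 2 and 5, both high in acute phase transcripts. Mouse-number run and acute phase level therefore cannot be told apart in that run.

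**Figure D3:**
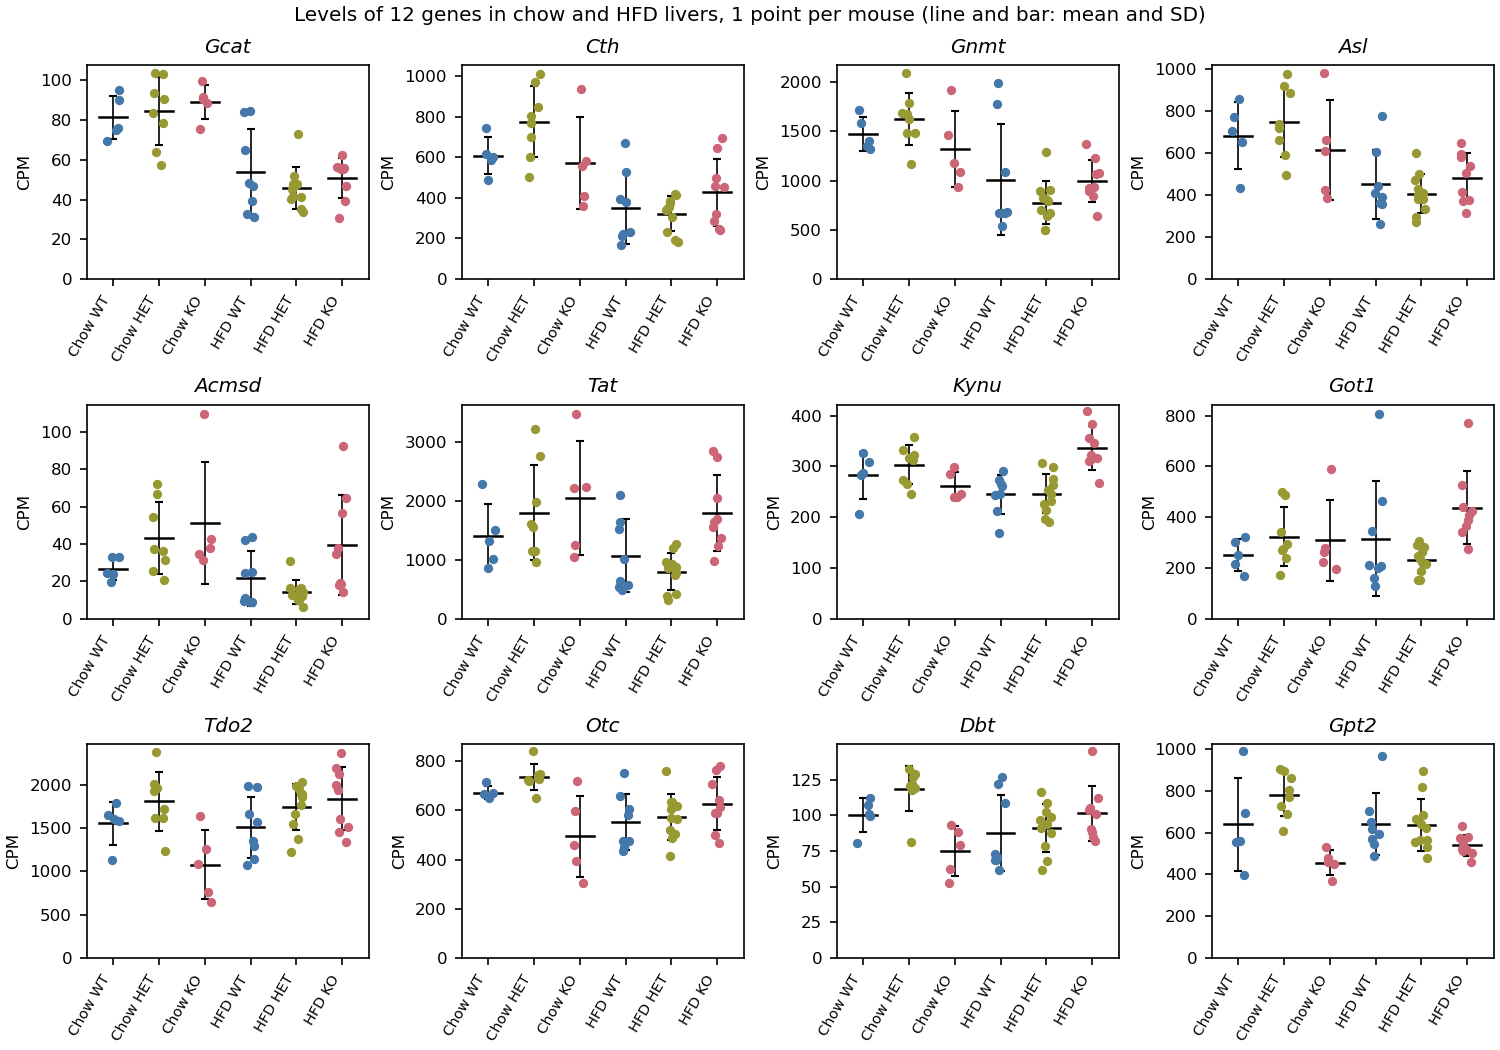
CPM of 12 genes in each liver on chow and HFD (points), by diet and genotype, with a bar at the group mean. On chow all 5 KO livers were below all 8 HET livers for Gpt2, while for Tdo2, Otc and Dbt the means were lower and the groups overlapped. Kynu had its highest mean in KO livers on HFD.

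On HFD several of the 37 genes were higher in KO livers, and none of them was among the 4 called lower on chow. Against HET livers 5 of the 37 rose and none fell, where 1.06% of all genes rose and 1.33% fell (2.39% in either direction), and the median log2 fold change was 0.22 against 0.01 over all genes. Kynu had 191 to 307 CPM around 246 in HET and 267 to 410 CPM around 322.6 in KO, with 8 of 9 KO livers above all HET livers (log2 fold change 0.45, SE 0.10, edgeR adjusted p = 0.0065). Acmsd had 14.3, 34.9 and 92.8 CPM in the lowest, median and highest KO liver, with 5 of 9 above the HET range given above (log2 fold change 1.52, SE 0.34, adjusted p = 0.0082). Kynu and Acmsd act downstream of Tdo2 in tryptophan breakdown, and Tdo2 and Kmo, the kynurenine monooxygenase, were not called.

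The other 3 genes that rose were Tat, Hgd, the homogentisate dioxygenase further down tyrosine breakdown (chr16:37580153-37632020), and Got1, the cytosolic aspartate aminotransferase (chr19:43499752-43524605, minus strand). Tat was 987, 1642 and 2849 CPM in the lowest, median and highest KO liver, with 7 of 9 above the HET range (log2 fold change 1.17, SE 0.28, edgeR adjusted p = 0.015). Hgd was 898 to 1337 CPM around 1124 in KO and 672 to 987 around 889 in HET, with 7 of 9 above the HET range (log2 fold change 0.41, SE 0.11, adjusted p = 0.027). Got1 was 274 to 771 CPM around 409 in KO and 151 to 306.3 around 233 in HET, with 8 of 9 above the HET range (log2 fold change 0.92, SE 0.24, adjusted p = 0.029).

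Against WT livers on HFD, Kynu was the 1 gene of 37 called, where 0.569% of all genes were higher and 1.15% lower (1.72% in either direction). It was 168, 254 and 291 CPM in the lowest, median and highest of 8 WT livers, below 8 of 9 KO livers (log2 fold change 0.46, SE 0.10, edgeR adjusted p = 0.018). Acmsd (log2 fold change 0.90, SE 0.36), Tat (0.75, SE 0.30) and Got1 (0.47, SE 0.26) did not pass (adjusted p = 0.19, 0.2 and 0.39), and single WT livers reached 43.5, 2112 and 807 CPM of them. This test and the one against HET use the same 9 KO livers, and the HET livers are also those of the diet comparison, so the 3 results are not independent. Without WT replicate 5 on HFD the adjusted p of Kynu was 0.071, and without the WT and HET livers high in Spp1 it was 0.13. Within each run of mouse numbers Kynu was not called, with log2 fold changes of 0.50 and 0.39.

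Of the values against HET, Kynu (adjusted p = 0.016), Acmsd (0.015), Tat (0.015) and Hgd (0.027) were still called by edgeR without the livers high in acute phase transcripts. That fit left out KO replicate 2 on HFD and KO replicates 2, 3 and 5 on chow, and Got1 was not called in it (log2 fold change 0.78, adjusted p = 0.064). Without the WT and HET livers high in Spp1, Kynu (log2 fold change 0.42, adjusted p = 0.022) and Acmsd (1.36, adjusted p = 0.042) were still called, and Tat (1.00, adjusted p = 0.059), Hgd and Got1 (both adjusted p = 0.096) were not. The count was 3 without HET replicate 4, 9 or 10 or KO replicate 7, and 7 without KO replicate 1, and without the HET liver whose Pepd level goes against its label it was 5. Within the runs of mouse numbers none of the 37 was called, with log2 fold changes of 0.52 and 0.36 for Kynu and 1.41 and 1.66 for Acmsd. Of 12 stellate cell and fibroblast markers 3 were lower in KO than in HET, and their part in the result was not tested.

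**Figure D4:**
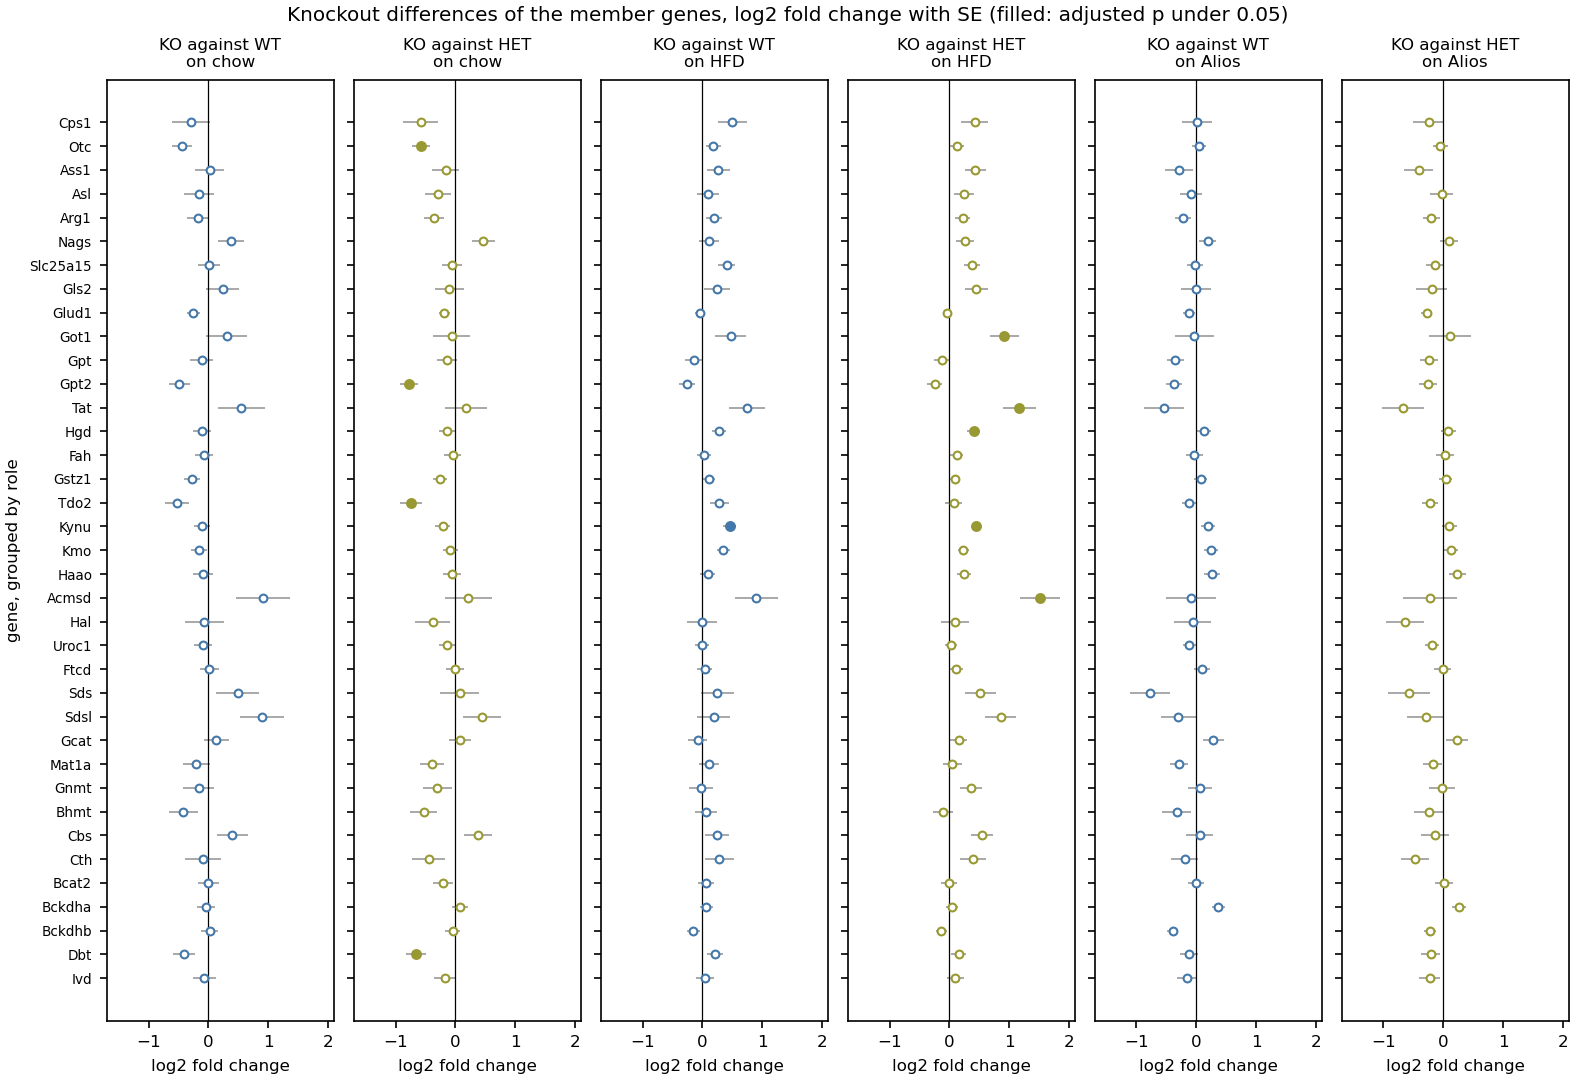
Log2 fold change of each gene (points, with standard error bars) for KO against WT and KO against HET livers on chow, HFD and Alios, where filled points passed an adjusted p of 0.05. Against HET the 4 filled points on chow lie left of 0 and the 5 on HFD lie right of 0, and no gene is filled in both.

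The calls against HET had opposite signs on the 2 diets but fell on different genes, and the difference between the diets was tested for each gene. The KO against WT effect on HFD minus that on chow was called for none of the 37 by edgeR, where 0.145% of all genes were. At an unadjusted p under 0.05 there were 7 of the 37 and 2003 of all 11064 genes. DESeq2 called 1 of the 37, and the count was 3 without KO replicate 4 on chow. The same difference against HET, added after the data were seen, was positive in 34 of 37 and called for 4, all higher, where 0.822% of all genes were higher and 1.98% lower (2.8% in either direction). They were Kynu (log2 difference 0.67, SE 0.16, edgeR adjusted p = 0.018), Dbt (log2 difference 0.81, SE 0.21, adjusted p = 0.027), Otc (log2 difference 0.70, SE 0.19, adjusted p = 0.035) and Tdo2 (log2 difference 0.82, SE 0.23, adjusted p = 0.038). Without the livers high in Spp1 only Kynu of these was called (adjusted p = 0.038). None of the 4 was called without the livers high in acute phase transcripts, without those high in muscle transcripts, or without either KO replicate 2 or KO replicate 5 on chow. Macrophage (11 of 17) and acute phase (7 of 22) genes were called in the same test with negative differences, and their part in the result was not tested.

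HET and WT livers did not differ by the edgeR test for any of the 37 genes on chow, HFD, Control or Alios, where 0%, 0.00904%, 0.00862% and 0.00862% of all genes were called. Of the 37 genes 1 had an unadjusted p under 0.05 on HFD and none on the other diets, and DESeq2 called none. Over all genes tested 494 did on chow, 924 on HFD, 331 on Control and 321 on Alios. The median log2 fold change of HET against WT was 0.13 on chow and -0.06 on HFD.

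The Alios diet was compared with its Control diet in WT and HET mice only, since Control had 1 KO liver. Estimates were negative in 35 of 37 genes in WT and 33 of 37 in HET, with medians of -0.26 and -0.25 against 0.01 over all 11595 genes tested in both. In WT none was called by edgeR (0% of all genes) or DESeq2, and 8 had an unadjusted p under 0.05, as did 976 of all 11595 genes. In HET Asl alone was called, where 0.0517% of all genes fell and 0.138% rose (0.19% in either direction). Asl was 844, 699, 531 and 610 CPM on Control and 430, 342, 370, 184 and 310 CPM on Alios, without overlap (log2 fold change -1.04, SE 0.22, edgeR adjusted p = 0.046). In WT it was 369 to 748 CPM on Control and 248.6 to 484 on Alios (log2 fold change -0.70, SE 0.20, adjusted p = 0.37). Gnmt did not overlap in either genotype: it was 1206 to 1373 CPM on Control and 359 to 998 on Alios in WT, and 1309 to 1573 and 335 to 1246 in HET, with adjusted p of 0.37 and 0.095. Macrophage marker sums were 466 to 802 CPM in HET livers on Control and 694 to 963 CPM on Alios, and no marker list had a called gene. The Asl call was kept in 1 of 9 fits that left out 1 liver (highest adjusted p = 0.26). It was lost with the replicate block, with only these groups fitted and without the livers on Alios high in Spp1 (adjusted p = 0.097). Those livers are HET replicate 4 and WT replicates 1 and 3. DESeq2 called 2 genes. All Control mice were numbered over 500, whereas 2 of 5 HET and 4 of 6 WT mice on Alios were numbered under 500. With the mice over 500 alone, 4 HET on Control and 3 on Alios, 7 genes were lower on Alios by edgeR, Asl among them (log2 fold change -1.23, adjusted p = 0.021), and in WT none was. The share of all genes called in that fit is not given here, so the 7 are not set against it. The 3 HET livers on Alios included replicate 4, the one high in Spp1. The 2 left out, replicates 1 and 2, had the highest mean z-scores of their group (0.325 and 1.069). What the mouse-number run adds to this count was not tested.

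On Alios none of the 37 differed by edgeR between KO and WT (0.224% of all genes) or between KO and HET (0.285% of all genes). DESeq2 called 1 gene against WT and none against HET. An unadjusted p under 0.05 was reached by 6 of the 37 and 1684 of all 11595 genes against WT, and by 3 and 1547 against HET. The smallest adjusted p was that of Bckdhb, a subunit of the branched-chain dehydrogenase, at 0.057. It was 109 to 146 CPM around 128 in WT and 63.8 to 113 around 92.8 in KO (log2 fold change -0.40, SE 0.10). Tat and Kynu, higher in KO than HET on HFD, had log2 fold changes of -0.67 (SE 0.35) and 0.10 (SE 0.12) in the same comparison on Alios, where neither passed. The chow and HFD livers and the Control and Alios livers were fitted apart, so this contrast between diets was not tested.

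Taking the 37 genes as 1 score, the mean of their z-scores per liver, HET livers had 0.56 ± 0.32 (SD, n = 8) on chow and -0.40 ± 0.48 (SD, n = 11) on HFD, and 10 of 11 HFD values were below 0. KO livers had -0.01 ± 0.64 (SD, n = 5) on chow and 0.14 ± 0.56 (SD, n = 9) on HFD. WT livers had 0.28 ± 0.30 (SD, n = 5) and -0.34 ± 0.86 (SD, n = 8), with single livers from -1.30 to 1.26 on HFD. On the other pair of diets WT had 0.50 ± 0.26 (SD, n = 5) on Control and -0.28 ± 0.70 (SD, n = 6) on Alios, HET 0.66 ± 0.35 (SD, n = 4) and -0.14 ± 0.96 (SD, n = 5), and all 8 KO livers on Alios were below 0. Stellate marker sums were 688 to 1004 CPM in the 7 livers high in Spp1, whose scores ran from -1.53 to -0.88. Other livers had sums in the same range, such as WT replicate 3 on Control (967 CPM, score 0.741) and HET replicate 10 on HFD (863.8 CPM, score -0.75). The part of these markers in the scores was not tested. Acute phase sums were high at both ends of the score: of the chow KO livers with high sums, replicate 2 had the lowest score (-0.63) and replicate 3 the highest (1.01), and KO replicate 2 on HFD had the highest of its group (1.05). The score describes these livers and carries no test, because the genes were chosen with earlier results known.

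**Figure D5:**
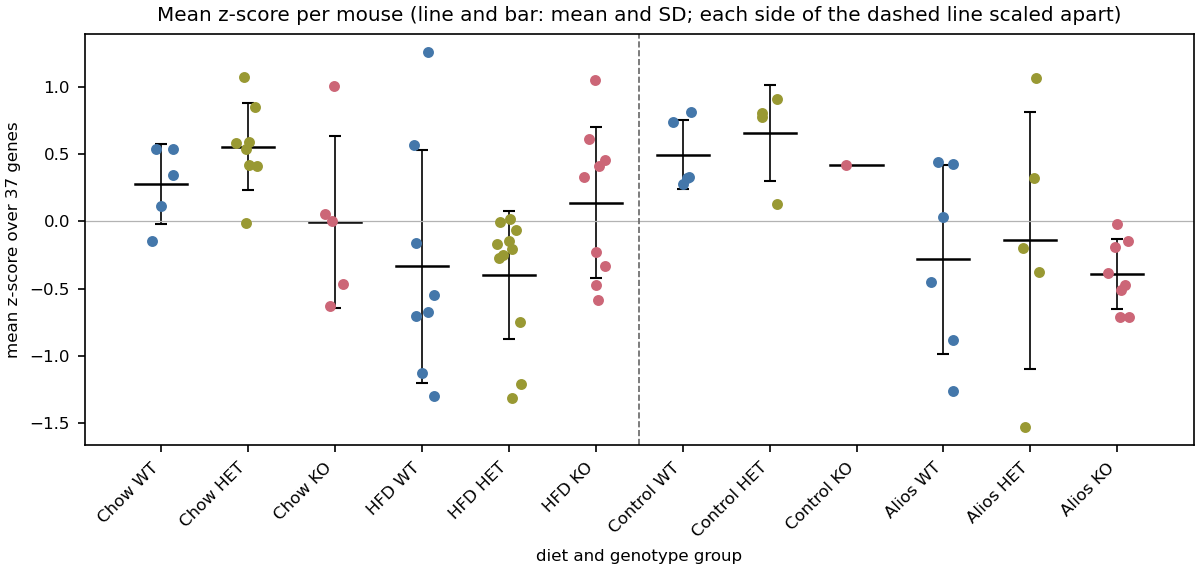
Mean z-score of the 37 genes in each liver (points), by diet and genotype, with the group mean and SD, where the dashed line separates the 2 pairs of diets that were scaled apart. Chow and Control groups centre above 0 except KO on chow, and the widest spreads are those of WT on HFD and HET on Alios.

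A list of 66 further enzymes and carriers of amino acid metabolism, of which 60 were tested, showed how far the same changes reached. On HFD 19 of the 60 fell in HET livers and 1 rose, where 7.26% and 6.97% of all genes did, with a median log2 fold change of -0.23. Without the livers high in muscle transcripts 16 fell, and without those high in Spp1 13 did. Among those that fell were Aldh1l1, a folate enzyme (log2 fold change -0.81, SE 0.14, edgeR adjusted p = 0.00011), Qdpr, which regenerates tetrahydrobiopterin (-0.59, adjusted p = 0.00018), Gch1, which starts the synthesis of tetrahydrobiopterin (adjusted p = 0.0011), and Asns, the asparagine synthetase (-3.45, SE 0.74, adjusted p = 0.0014). In WT none of the 60 was called by edgeR, although 46 estimates were negative. In KO livers 8 of the 60 rose and none fell on HFD, where 4.51% and 6.19% of all genes did, led by Dld, the dehydrogenase shared by the keto acid complexes (log2 fold change 0.61, adjusted p = 0.0016), and Mut, the methylmalonyl-CoA mutase (0.60, adjusted p = 0.0074). None of the 8 was called by edgeR without the livers high in acute phase transcripts (log2 fold changes of 0.29 for Dld and 0.30 for Mut), and 2 were without those high in muscle transcripts.

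On chow 13 of the 60 were lower in KO than in HET and none was higher, where 5.61% and 7.91% of all genes were, among them Shmt1, which trades serine for glycine (log2 fold change -0.70, adjusted p = 0.00052), Mccc1, a subunit of the leucine pathway carboxylase (-0.53, adjusted p = 0.0015), and Dmgdh, the dimethylglycine dehydrogenase (-0.79, adjusted p = 0.0018). Against WT 3 were lower, Shmt1 (-0.60, adjusted p = 0.013), Gcdh (-0.47, adjusted p = 0.04) and Dmgdh (-0.63, adjusted p = 0.044), where 0.931% of all genes were lower. Without the livers high in acute phase transcripts none of these was called by edgeR in either comparison, with log2 fold changes against HET of -0.62 for Shmt1 and -0.37 for Mccc1. Without those high in muscle transcripts 2 were called against HET and 1 against WT. On HFD the glutamine carrier gene Slc38a2 rose in KO against WT (0.55, adjusted p = 0.028) and HET (0.54, adjusted p = 0.012), and without the livers high in Spp1 it was called against HET only.

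Of 18 regulators listed, Atf4, a transcription factor of the amino acid response that is known to drive Asns, fell in HET livers on HFD (log2 fold change -0.59, SE 0.11, edgeR adjusted p = 0.00035). Sesn2, a leucine sensor gene, rose in the same comparison (adjusted p = 0.0051). On chow Ppara, the nuclear receptor of fatty acid oxidation, was lower in KO than in WT (-0.75, adjusted p = 0.028) and than in HET (-0.65, adjusted p = 0.017), and on HFD it was lower than in HET (-0.52, adjusted p = 0.037). On chow it was not called without the livers high in acute phase transcripts (log2 fold change against WT -0.35, against HET -0.25) or without those high in muscle transcripts, and on HFD not without those high in Spp1 (adjusted p = 0.06). Tsc22d3, a glucocorticoid target, was higher in KO than in WT on HFD (1.00, adjusted p = 0.031), though not without the livers high in Spp1 (0.95, adjusted p = 0.13). Cebpb, a factor of the acute phase response, fell on HFD in KO livers (-1.29, adjusted p = 0.004), the comparison in which acute phase genes fell, and had a log2 fold change of -0.39 without the livers high in acute phase transcripts (adjusted p = 0.86).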

How the data were processed

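The authors deposited unscaled read counts by Ensembl gene, with liver and gonadal fat in separate tables. Per the submitters' processing notes, STAR 2.5.1b and featureCounts 1.5 were used with the build GRCm38.p5. Which settings and strand option they had is not given in the sources used here. Of 121 labelled samples 120 had a column (75 liver, 45 gonadal fat), and 1 gonadal column that matched no label was left out. Symbols and coordinates came from GENCODE vM21 (GRCm38), which named 25723 of 25759 genes. Upstream sequences came from RefSeq on GRCm38.p6.

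Groups were taken from the labels as diet and genotype. The deposited counts were fitted with edgeR 4.0.16 in R 4.3.3 (limma 3.58.1) by the quasi-likelihood test, in 1 fit for chow and HFD (46 libraries) and 1 for Control and Alios (29 libraries). Genes were kept by a minimum count of 10 and a total of 15, libraries were scaled by TMM, and p-values were two-sided with Benjamini-Hochberg adjustment over all genes tested. The threshold for a call was an adjusted p of 0.05. CPM used TMM-scaled library sizes, and z-scores used log2 CPM with a prior count of 2. DESeq2 1.42.0, other scaling and filters, leaving out libraries (those with over 60000 CPM of acute phase, 200 of muscle or 150 of cholangiocyte markers were chosen after seeing the data), runs of mouse numbers and a replicate block were tried as alternatives. The lowest total, 42692 counts, gives coarse values for low genes. Within groups 229 pairs of libraries were compared, and none agreed within sampling noise (lowest chi-square per degree of freedom 3.36). The labels do not state that libraries come from separate mice in so many words, but each carries its own mouse number. The method was tested on simulated data.

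The genes and all lists were chosen with earlier results of these data known. Values per mouse are given for the called genes, up to the 8 of smallest adjusted p in a comparison, and for at most 5 called genes of each other list, and the rest are given as ranges and counts. Marker lists are given as sums per library. Some genes of the other lists are included in the counts and are not reported here by name.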

Additional observations from a re-analysis of the deposited data

Results flagged for a closer look

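In 47 sets of values, each a called gene or the mean z-score in a group of 4 to 10 livers, the highest and lowest values were checked for a gap to the rest. Of these 1 stood apart, where chance gives about 1 in 20. Dbt was 81.5 CPM in HET replicate 4 on chow, the lowest of 8, and the next lowest was 118 CPM.

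The difference between KO and HET livers differed between HFD and chow for 4 genes by a test of the difference itself in edgeR. On the log2 scale it was higher on HFD by 0.70 for Otc, 0.82 for Tdo2, 0.67 for Kynu and 0.81 for Dbt. None was called without the livers high in acute phase transcripts.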

How the results depend on the processing

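No count changed direction under any alternative, and the filters on low counts, RLE in place of TMM scaling (apart from KO against WT on Alios) and the mouse-number run as a covariate kept the counts within 1.5 times of those reported. With a threshold of 0.01 the counts were 0 for KO against WT on HFD, 2 for KO against HET on HFD, 8 for HFD against chow in HET, 0 for Alios against Control in HET and 0 for the added KO to HET difference. DESeq2 called 2 for KO against WT on HFD, 1 for KO against WT on Alios (also 1 with RLE), 1 for HFD against chow in WT, 2 for Alios against Control in HET and 1 for the KO effect on HFD minus chow. Fitting only the groups compared gave 0 for KO against WT on HFD, 2 for KO against HET on chow and 0 for Alios against Control in HET.

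With the replicate number as a block the counts were 2 for KO against WT on HFD, 3 for KO against HET on HFD, 10 for HFD against chow in HET, 0 for Alios against Control in HET and 2 for the added difference. Over 15 comparisons same-numbered livers correlated between -0.35 and 0.53, and in none did every pair exceed 0.1. In KO against WT on Alios 4 of 6 pairs did, and 3 of the 6 correlated best with the liver of their own number. In KO against WT on chow 0 of 5 pairs did either. This check does not settle whether the numbers pair any of the mice.

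Among mice numbered under 500 the count was 6 for HFD against chow in HET and 0 for KO against WT on HFD, KO against HET on chow, KO against HET on HFD, HFD against chow in KO and the added difference. Among those over 500 it was 3 for KO against WT on chow, 3 for the KO effect on HFD minus chow, and 0 for KO against WT on HFD, KO against HET on HFD and HFD against chow in HET. These runs hold fewer mice, and the 2 KO mice on chow numbered over 500 are replicates 2 and 5, both high in acute phase transcripts. All Control mice were numbered over 500, and with mice over 500 alone the count was 7 for Alios against Control in HET. In that fit 1 of the 3 HET livers on Alios was replicate 4, high in Spp1. Without livers high in acute phase transcripts the count was 0 for KO against HET on chow, HFD against chow in KO and the added difference. Without livers high in muscle transcripts it was 1 for KO against HET on chow, 11 for HFD against chow in HET and 0 for the added difference. Without livers high in Spp1, chosen after seeing the data like the other 2 leave-outs, it was 0 for KO against WT on HFD, 2 for KO against HET on HFD, 10 for HFD against chow in HET, 0 for Alios against Control in HET and 1 for the added difference. These leave-outs were not run where the groups held no such liver.

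Leaving out each liver in turn gave 0 to 3 for KO against WT on chow, 0 to 2 for KO against WT on HFD, 0 to 1 for KO against WT on Alios, 2 to 6 for KO against HET on chow, 3 to 7 for KO against HET on HFD, 0 to 4 for HFD against chow in WT, 14 to 19 for HFD against chow in HET, 2 to 5 for HFD against chow in KO, 0 to 1 for Alios against Control in HET, 0 to 3 for the KO effect on HFD minus chow and 0 to 4 for the added difference. The cause of these changes was not tested.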
